A study of Arabidopsis thaliana with 4 samples.

Results

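The genome-wide transcript response to loss of the histone deacetylase HDA6 was described by comparing Arabidopsis thaliana seedlings labelled hda6 with wild type (WT). The members were all genes of the authors' hda6 against WT table whose larger group mean was at least 1 RPKM (a read count divided by exon length and by library size), which gave 18985 of the 34262 genes listed, 24905 of which have a fold change. Both groups were whole seedlings of the Col-0 ecotype, harvested at 14 days after growth in long days at 22 °C. The sources used here do not name the hda6 allele, and GEO lists 1 sample per genotype. The series also holds ldl1/2, mutant in a pair of LSD1-type histone demethylase genes, and hda6/ldl1/2, which are given below only beside hda6.

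HDA6 is a histone deacetylase of the RPD3 type, which removes acetyl groups from histone tails and so favours a closed chromatin state. In Arabidopsis it is known for keeping transposons, repeats and surplus ribosomal RNA gene copies silent, where it works with the DNA methyltransferase MET1. It is also found in complexes with FLD and the WD40 protein FVE that repress genes outside the heterochromatin, among them genes that delay flowering.

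The tables hold group means only, so no value per library and no spread between libraries could be computed. Whole-read steps in the low values gave a depth of 48.6 to 51.6 M reads (M stands for mega) in each of 3 WT libraries (150.6 M in all) and of 47.3 to 47.5 M in each of 2 hda6 libraries (94.85 M in all). No source used here tells whether these libraries came from separate plants, and the spread behind the deposited p-values may be technical. Levels are group means in RPKM, the larger as deposited and the smaller rebuilt from the fold change in the authors' deposited table. Genes "rose" or "fell" where their deposited FDR was under 0.05, and were "higher" or "lower by size" where its log2 fold change was at least 1 either way. In whole seedlings, fewer cells of a type and less RNA per cell cannot be told apart.

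HDA6 itself (AT5G63110, chromosome 5, 25315506 to 25318347) stood at 17.6 RPKM in WT and 24.5 RPKM in hda6, and this increase passed the FDR of the authors' deposited table. A transcript level does not show whether the protein works, so this neither checks nor contradicts the label. Among the 15 histone deacetylase genes measured, HDA6 and HDA18 rose (HDA18 from 0.534 to 1.40 RPKM) and HDA5, the neighbour and relative of HDA18, fell from 16.0 to 12.0 RPKM. HDA19, the closest relative of HDA6, stood at 44.7 and 45.9 RPKM. HDA7 was below the filter but rose from 0.00756 to 0.403 RPKM. None of the 13 genes for HDA6 partner proteins passed the deposited FDR in either direction, and none had a deposited p under 0.05. MET1 (DMT1 in the table) stood at 8.57 and 9.12 RPKM, FLD at 7.42 and 7.65 RPKM, and FVE (MSI4 in the table) at 24.2 and 23.8 RPKM.

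Most transcripts differed little. Of the member genes, 89.5% lay within 0.5 of 0 on the log2 scale, the median log2 fold change in the authors' deposited table was -0.01, and its 1st and 99th percentiles were -1.77 and 1.99. The size rule called 381 genes higher (2.01%) and 380 lower (2.0%). By the authors' FDR, 831 rose (4.38%) and 818 fell (4.31%). Both criteria together left 353 higher and 338 lower genes. The standard error implied by the authors' p-values had a median of 0.32 in log2 for genes of 1 to 2 RPKM and 0.11 for genes of 50 RPKM and above.

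**Figure D1:**
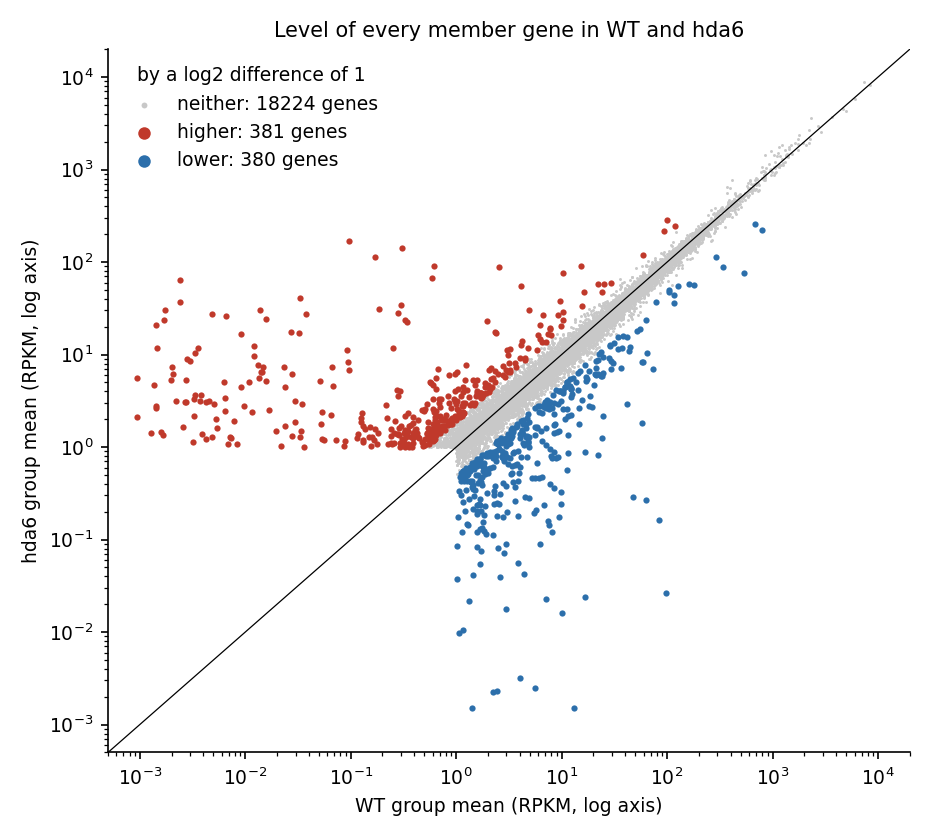
Level of each of the 18985 member genes, with the WT group mean on the horizontal and the hda6 group mean on the vertical axis (both RPKM, log axes); red points are 381 genes higher and blue points 380 genes lower by a log2 difference of 1, and grey points are the rest. The filter of 1 RPKM on the larger mean draws the straight edges; red points spread far to the left of it, at WT levels near 0, while blue points all lie at WT levels of at least 1 RPKM.

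The filter lets a higher gene have any WT level but holds a lower gene to a WT mean of at least 1 RPKM, so WT levels of both directions are given as a description. Of the 381 higher genes, 98 had a WT mean under 0.1 RPKM, 170 one of 0.1 to 1 RPKM, 99 one of 1 to 10 RPKM and 14 one of at least 10 RPKM. A gene with a WT mean under 1 RPKM enters only through its hda6 level, so its direction is fixed by the filter. The same holds the other way for a gene with an hda6 mean under 1 RPKM, which enters only through its WT level. Of the 88 genes with a rebuilt WT mean under 10 reads, 49 were under 0.5 reads over all 3 WT libraries, which stands for no read. Where the WT mean was at least 1 RPKM, 113 genes were higher and 380 lower by size, and 582 rose and 818 fell. This choice drops higher genes that were low in WT but no lower gene, so its excess of lower genes is built in. A mean of both groups of at least 1 RPKM, which treats the groups alike, gave 280 higher and 316 lower genes by size. By the deposited FDR, 744 rose and 772 fell under that filter. The higher nuclear genes had a median level of 0.549 RPKM in WT and 2.82 RPKM in hda6, and the lower ones went from 4.17 to 0.892 RPKM.

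Among the genes that were near 0 in WT were pieces of transposons annotated as genes. Transposon-related products made up 17 members among the 104 listed. Of these 5 rose (29.4%) and none fell, against 4.38% and 4.31% of all members, while 1 had a downward deposited p under 0.05. Those near 0 in WT, the ones named here among them, passed the filter only through hda6. Their direction is therefore fixed, and the counts are a description. The Ta11-like non-LTR retrotransposon AT2G16676 reached 2.63 RPKM in hda6, at least 248-fold higher than the floor of 3 reads over the WT group. By the same floor AT3G30820, a retrotransposon ORF-1 protein at 3.15 RPKM, was at least 193-fold higher and AT3G43837, a reverse transcriptase-like protein at 3.08 RPKM, at least 154-fold higher. A further Ta11-like element, AT2G41590, reached 2.75 RPKM against 2.40 WT reads, a ratio of 94.2 to 2810 by counting error, and its end overlaps AT2G41600, at 11.8 and 11.4 RPKM. Pseudogenes can hardly be judged here, since only 1 of the 4851 pseudogenes of the reference annotation is in the table.

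Non-coding and uncharacterized genes were also among the activated ones. Non-coding RNA genes had 206 members among the 3687 listed. Of these 25 rose (12.1%) and 6 fell (2.91%), against 4.38% and 4.31% of all members. Those near 0 in WT passed the filter only through hda6, so their direction is fixed and the counts are a description. AT2G04655 reached 41.2 RPKM and AT2G07213 reached 12.5 RPKM, each from 2.41 WT reads. Both overlap another higher gene, AT2G03965 (0.0974 to 167 RPKM) and AT2G07215 (0.0217 to 1.03 RPKM), and since no source states that counting used strand, reads of such overlapping genes cannot be told apart. Genes whose product is uncharacterized were higher by size in 75 of 1190 cases (6.3%) and lower in 44 (3.7%), against 2.01% and 2.0% of all members. Among them AT3G29080 reached 7.41 RPKM and AT2G13463 reached 11.7 RPKM, at least 497-fold and at least 445-fold above the floor. Both passed the filter only through hda6, so their direction is fixed, and the counts of uncharacterized genes are a description too. Single members of other families switched on alike. AT5G47260, a putative disease resistance gene, reached 2.10 RPKM (at least 299-fold), and the hydroxyproline-rich glycoprotein gene AT1G63540 reached 4.73 RPKM (at least 474-fold).

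Near-identical copies on different chromosomes were activated together in several cases. A copy, here a gene of at least 75% identity over at least 300 bases, existed for 25% of the nuclear members, 41.4% of the higher and 39.9% of the lower genes. A copy of a higher gene was found for 9.81% of the higher genes and 0.971% of all members, and a copy of a lower gene for 16.2% of the lower genes and 0.997% of all. The pairs of higher genes formed 16 groups of 37 higher genes, and 10 groups had members on more than 1 chromosome. Higher genes with a WT mean under 1 RPKM passed the filter only through hda6. Lower genes with an hda6 mean under 1 RPKM passed it only through WT. The direction of both is fixed, so a measured copy of this kind could only be called 1 way. These shares and groups are therefore a description, and whether copies respond together was not tested. Reads of near-identical copies may be split or shared by the authors' counting, so the level of a single copy is uncertain.

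The largest group encodes Ulp1-type proteases, relatives of the enzymes that process and remove the small modifier SUMO and that plant transposons often carry. Its 4 members were 92.3% to 99.4% identical, and their rebuilt WT means came to 3.4 to 6.4 reads over 3 libraries. In hda6 AT5G45570 reached 30.0 RPKM, AT5G28235 7.63 RPKM, AT4G08430 7.40 RPKM and AT5G28810 2.54 RPKM. A second group held 3 genes annotated as transcription repressors on chromosomes 2, 3 and 4, of 98.0% to 99.3% identity. AT2G19850 went from 0.0322 to 17 RPKM, AT3G54730 from 0.303 to 34.2 RPKM and ATOFP9 from 0.0373 to 27.7 RPKM.

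In other groups an active copy stood beside silent ones. ARP, an apurinic endonuclease of DNA repair, was already at 4.91 RPKM in WT and reached 30.2 RPKM, whereas its partial copies on chromosome 3 started near 0. AT3G60950 reached 26.4 RPKM and AT3G61030 reached 11.8 RPKM, and the stretches alike within this group were 83.3% to 100% identical. NTMC2TYPE4, the lipid-binding gene that shares sequence with them, stood at 44.8 RPKM in both groups. Of 4 protein phosphatase 2C genes alike, AT2G05050 and AT4G08260 went from no WT read to 3.13 and 3.69 RPKM, and AT3G27140 to 0.943 RPKM, just below the filter. AT2G30020, the copy expressed in WT, went from 8.57 to 6.19 RPKM.

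For the protein phosphatase pair the likeness extends over the promoter, so both sequences are shown. They run from 250 bases before to 50 bases after the annotated gene start (RefSeq, TAIR10.1), at chr2:1793785-1794084 and chr4:5200597-5200896, both on the plus strand. Of 300 aligned bases 286 were identical (95.3%), and capitals mark the 14 that differ.
AT2G05050: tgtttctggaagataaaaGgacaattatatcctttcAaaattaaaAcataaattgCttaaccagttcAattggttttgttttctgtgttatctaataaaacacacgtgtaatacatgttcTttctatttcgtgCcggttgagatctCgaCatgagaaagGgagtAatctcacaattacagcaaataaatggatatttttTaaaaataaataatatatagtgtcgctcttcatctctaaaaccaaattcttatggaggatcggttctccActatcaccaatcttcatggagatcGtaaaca
AT4G08260: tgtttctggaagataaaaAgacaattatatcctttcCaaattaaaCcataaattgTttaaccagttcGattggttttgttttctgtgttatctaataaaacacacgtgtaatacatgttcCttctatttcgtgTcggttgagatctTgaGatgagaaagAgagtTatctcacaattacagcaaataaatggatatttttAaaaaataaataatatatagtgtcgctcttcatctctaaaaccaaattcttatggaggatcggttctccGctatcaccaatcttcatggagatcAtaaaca

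Promoters alike were also seen in neighbours on chromosome 3 that the copy rule did not pair, and that belong to the run of higher genes described below. AT3G29631 went from 0.612 to 90.3 RPKM and AT3G29639 from 0.171 to 113 RPKM. Their promoters, at chr3:11470772-11471071 and chr3:11479984-11480283 on the minus strand, were identical in 289 of 302 aligned columns (95.7%). Capitals mark the 9 substituted and 4 gapped columns.
AT3G29631: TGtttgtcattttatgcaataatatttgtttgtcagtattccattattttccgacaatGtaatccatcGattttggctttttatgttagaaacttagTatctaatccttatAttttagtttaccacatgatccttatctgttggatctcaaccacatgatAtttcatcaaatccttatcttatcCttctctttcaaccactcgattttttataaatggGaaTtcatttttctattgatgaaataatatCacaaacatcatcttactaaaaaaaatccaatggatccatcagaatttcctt
AT3G29639: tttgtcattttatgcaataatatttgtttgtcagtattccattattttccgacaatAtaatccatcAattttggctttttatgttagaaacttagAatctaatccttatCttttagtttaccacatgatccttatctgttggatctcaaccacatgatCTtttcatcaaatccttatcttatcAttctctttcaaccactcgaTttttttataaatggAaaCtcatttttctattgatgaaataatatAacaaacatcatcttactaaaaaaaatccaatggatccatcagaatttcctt

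Higher genes made up a larger share of the members near the chromosome centres than far from them. Each chromosome has a gene-poor centre around its centromere, taken here as the middle of the 1 Mb window with the fewest protein-coding genes, at 14.85, 5.0, 13.93, 3.55 and 11.9 Mb on chromosomes 1 to 5. Of the 144 nuclear members within 1 Mb of a centre, 21 were higher by size (14.6%) and 2 were lower (1.39%). At 1 to 2 Mb 34 of 414 were higher (8.21%), at 2 to 5 Mb 92 of 4044 (2.27%), and beyond 5 Mb 230 of 14346 (1.6%). Lower genes made up 2.87% of the members within 2 Mb, 2.57% at 2 to 5 Mb and 1.78% beyond 5 Mb. The Clopper-Pearson 95% interval of the higher share within 2 Mb, 55 of 558 genes or 9.86%, was 7.51% to 12.6%, and beyond 5 Mb it was 1.4% to 1.82%. These intervals cover counting of genes only.

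**Figure D2:**
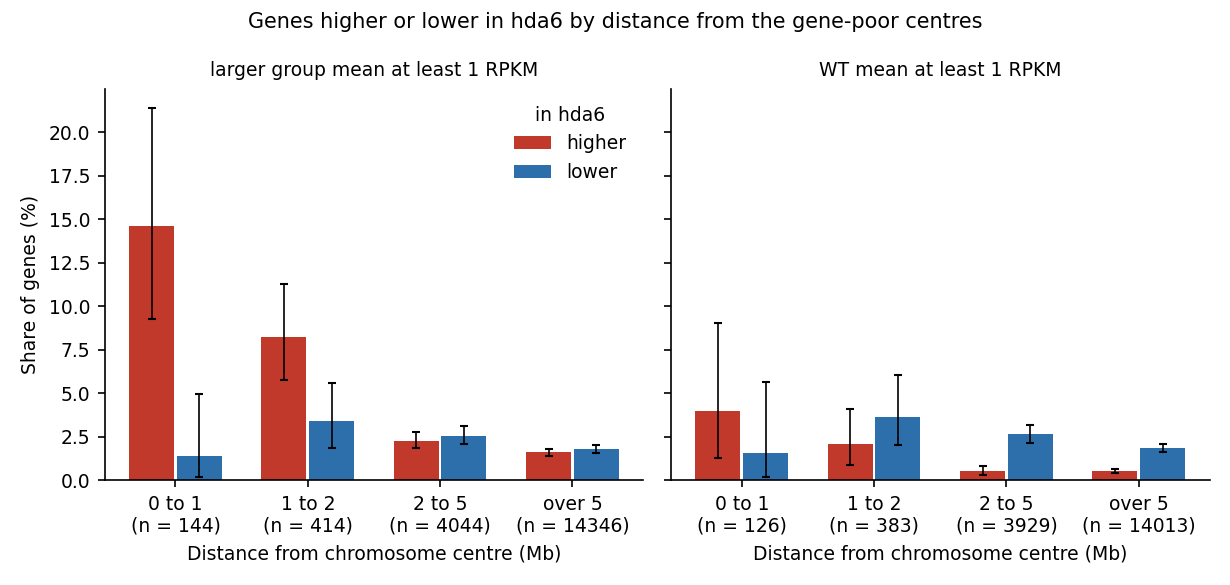
Share of genes higher (red) or lower (blue) in hda6 by size in 4 bins of distance from the chromosome centre (Mb), with Clopper-Pearson 95% intervals as bars; n is the number of genes in the bin. With the usual filter (left) the higher share falls from 14.6% to 1.6% with distance, and with a WT mean of at least 1 RPKM (right) from 3.97% to 0.535%.

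The gradient includes genes near 0 in WT, which pass the filter only where they are activated. Of the 98 higher genes with a WT mean under 0.1 RPKM, 35 (35.7%) lay within 2 Mb of a centre, against 2.94% of the nuclear members. The share of genes measured also differs with position. Of the protein-coding genes in the table, 40.6% of 1342 within 2 Mb were members, against 72.2% of 19668 beyond 5 Mb. Among genes with a WT mean of at least 1 RPKM, 13 of 509 within 2 Mb were higher (2.55%), against 75 of 14013 beyond 5 Mb (0.535%), while 3.14% and 1.83% were lower.

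The share of higher genes within 2 Mb was 10.5% on chromosome 1, 7.75% on chromosome 2, 19.2% on chromosome 3, 6.54% on chromosome 4 and 10.2% on chromosome 5. Each of these rests on 10 to 14 higher genes among 73 to 153. The first and last Mb of the chromosomes, where the arms end, held 36 higher genes among 2198 members (1.64%).

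The higher genes near the centres included AT3G44070, a glycosyl hydrolase family 35 gene that reached 23.6 RPKM (at least 1900-fold), and AT2G15420, a myosin heavy chain-like gene that reached 5.54 RPKM (at least 798-fold). Others were expressed in WT. AT5G35480, uncharacterized, went from 10.4 to 76.6 RPKM, and its neighbour ATMRU1, named for its response to methionine overaccumulation, from 2.41 to 17.3 RPKM. PEX3_2 (AT2G15880), a leucine-rich repeat protein gene, went from 15.3 to 91.5 RPKM.

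Genes that responded alike also lay next to each other. Of the 377 higher nuclear genes, 63 (16.7%) had a higher gene as the next measured gene on at least 1 side, against 3.85% of all nuclear members. Of the 376 lower genes, 89 (23.7%) had a lower neighbour, against 3.86% of all. Only members count as neighbours, so genes below the filter in both groups are skipped. Members with a WT mean under 1 RPKM passed only through hda6, and those with an hda6 mean under 1 RPKM only through WT. Their direction is fixed, so the counts of neighbours and of runs are a description. Leaving out neighbours with the same product text, which takes out tandem copies of a shared product, left 53 higher and 47 lower genes. Overlapping genes, such as AT2G04655 and AT2G03965 above, were not left out of any of these counts. Reads of such genes cannot be told apart, and how many neighbours overlap was not counted.

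Runs of at least 3 measured genes in a row numbered 5 among the higher genes (17 genes) and 6 among the lower ones (19 genes). The run with the most genes, 5 on chromosome 5 over 24.9 kb, holds the genes for glycine-rich oleosin-type proteins, which in Arabidopsis are known from the pollen coat. GRP19 went from 0.0940 to 8.29 RPKM, GRP20 from 0.673 to 7.05 RPKM, AT5G07570 from 0.560 to 5.07 RPKM and AT5G07572 from 0.605 to 2.59 RPKM. PEI1, a zinc finger gene known from embryo development, opened the run at 0.386 and 1.26 RPKM. None of the 8 pollen genes and none of the 13 seed genes listed as tissue markers reached the filter. All 5 genes of the run passed it through their hda6 level alone.

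The run with the highest levels lies on chromosome 3 over 27.5 kb. AT3G29633 went from 0.328 to 23.9 RPKM, beside the nuclease gene AT3G29631 and AT3G29639 with the promoters shown above. On chromosome 1, AT1G27565 went from 0.340 to 22.6 RPKM, the F-box gene AT1G27580 from 0.0294 to 3.14 RPKM, and AT1G27570, a phosphatidylinositol kinase family gene between them, reached 1.41 RPKM (at least 150-fold). On chromosome 2, AT2G05642, a nucleic acid-binding OB-fold gene, reached 20.8 RPKM (at least 1970-fold). Its neighbours were AT2G05635, a helicase gene that reached 5.53 RPKM from 1.4 WT reads, and AT2G05655, at 0.391 and 1.43 RPKM. Every gene of these runs on chromosomes 1, 2 and 3 passed the filter through its hda6 level alone. In the remaining run, near the centre of chromosome 3, CHR38 (CLASSY1), a chromatin remodeller that acts in RNA-directed DNA methylation, rose from 3.68 to 7.32 RPKM beside the non-coding gene AT3G06465 (at least 50.8-fold).

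Of the 6 runs of lower genes, 3 held tandem members of 1 family. On chromosome 1 FOX1, FOX2 and FOX5, which encode berberine bridge-type oxidases, fell from 3.91 to 0.530, from 7.54 to 0.145 and from 2.75 to 0.899 RPKM. FOX1 is known for making cyanogenic indole compounds in pathogen defence. On chromosome 5 the heavy-metal-associated genes HIPP13 and HIPP14 fell from 10.3 to 2.58 and from 9.83 to 0.331 RPKM, next to AT5G52720, at 1.37 and 0.579 RPKM, which did not pass the deposited FDR. On chromosome 3 the nearly identical AT14A_1 and AT14A_2, integrin-like membrane protein genes, went from 23.5 to 5.91 and from 23.9 to 5.93 RPKM, and AT3G28270 from 7.65 to 2.81 RPKM. The other 3 runs held uncharacterized genes, and 1 of them also the matrix metalloproteinase gene 3MMP (2.20 to 0.806 RPKM). AT1G24147 fell from 19.5 to 2.69 RPKM and AT5G44568 from 11.6 to 1.36 RPKM in these runs.

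Among the 2272 genes with a larger mean of at least 50 RPKM, 17 were higher (0.748%) and 24 lower (1.06%) by size, while 105 rose and 90 fell. AT2G03965, uncharacterized, went from 0.0974 to 167 RPKM and AT3G01345, uncharacterized, from 0.307 to 141 RPKM. The non-coding AT2G05914 went from 0.584 to 67.5 RPKM, AT5G26270, uncharacterized, from 2.53 to 88.8 RPKM, and the non-coding AT4G04223 from 4.09 to 55.6 RPKM. In WT these 5 genes stood between 0.0974 and 4.09 RPKM.

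The largest decreases of abundant genes included well-known defence genes. PR1, a secreted defence protein, stood at 96.9 RPKM in WT and 0.0265 RPKM in hda6. The hda6 level of PR1 rests on 2.27 reads, which puts the decrease at 1150-fold to 34200-fold by counting error. PCR1, a cadmium resistance protein of the plasma membrane, went from 84.3 to 0.161 RPKM and TAT3, a tyrosine aminotransferase induced by jasmonate, from 63.7 to 0.266 RPKM. LURP1, named for its late upregulation on infection by an oomycete, went from 73.7 to 6.93 RPKM. The most abundant of them was AT2G25510, uncharacterized, which went from 542 to 77.0 RPKM, and AT3G22235, a small cysteine-rich membrane protein gene, went from 337 to 89.4 RPKM. RFS2, a raffinose synthase-like gene also called seed imbibition 2, went from 64.5 to 10.4 RPKM.

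**Figure D3:**
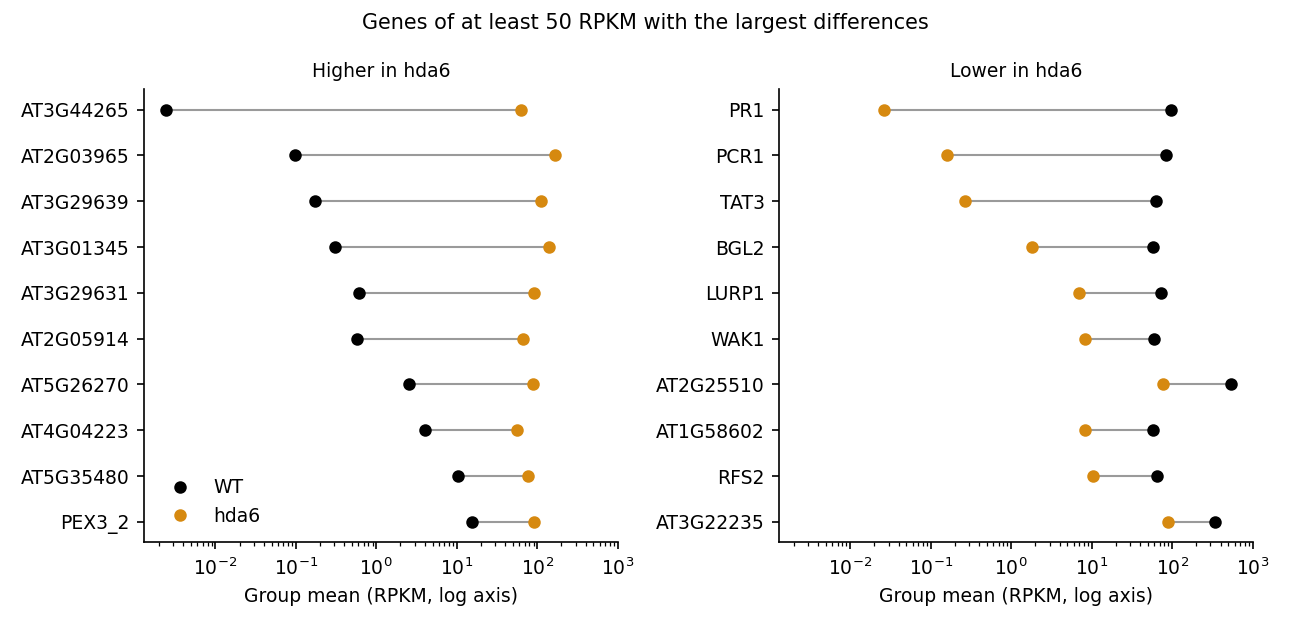
WT (black) and hda6 (orange) group means in RPKM on a log axis for the 10 largest increases (left) and 10 largest decreases (right) among genes with a larger mean of at least 50 RPKM; each line joins the 2 means of a gene. WT levels of the increased genes span 0.00243 to 15.3 RPKM, and hda6 levels of the decreased genes span 0.0265 to 89.4 RPKM.

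Gene families were then read from the annotation text, 67 in all, and compared with the background of 4.38% rising and 4.31% falling. Of the 67 families, light harvesting had the largest share of rising genes. Of 26 genes for light-harvesting proteins, which bind chlorophyll and feed the photosystems, 15 rose (57.7%) and none fell, with 19 upward and none downward at a deposited p under 0.05, and the median log2 fold change was 0.45 in the authors' deposited table. LHCB3 rose from 413 to 763 RPKM, LHCB1.1_2 from 119 to 248 RPKM and LHCB2.2 from 121 to 213 RPKM. Photosystem subunits, a family that overlaps with it and with the plastid-encoded genes below, rose in 20 of 58 cases and fell in 1. Of the 11 chlorophyll synthesis genes 5 rose and none fell, with 7 upward and none downward at a deposited p under 0.05. CHLH, a subunit of the magnesium chelatase, rose from 109 to 152 RPKM, and HEMA3, a minor glutamyl-tRNA reductase gene, from 0.298 to 1.69 RPKM. Plastid-encoded genes rose in 6 of 30 cases and fell in none, with 1 downward at a deposited p under 0.05. Among those that rose was RBCL, the large subunit of Rubisco, from 10.4 to 29.1 RPKM. Of 7 mitochondrion-encoded genes none rose and 1 fell, with 2 downward at a deposited p under 0.05.

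Of 21 beta-galactosidase-related products 9 rose (42.9%) and none fell, with 14 upward and none downward at a deposited p under 0.05. Of these AT3G44265 had the largest increase of all members of at least 5 RPKM and reached 63.7 RPKM, at least 3540-fold above the floor. Family members near 0 in WT, such as this gene, passed the filter only through hda6. Their direction is therefore fixed, and the counts of this family are a description. F-box proteins, which choose targets for ubiquitin-dependent breakdown, rose in 21 of 165 cases (12.7%) and fell in 2. AT4G22390 rose from 0.973 to 6.19 RPKM, AT3G47030 from 0.685 to 3.27 RPKM and AT5G60610 from 0.351 to 2.36 RPKM. Only 165 of 653 F-box genes in the table were members. Those with a WT mean under 1 RPKM, the named ones among them, passed the filter only through hda6. Their direction is fixed as well, and the F-box counts are likewise a description. GDSL lipases rose in 10 of 52 cases and fell in 2, and ESM1, which directs the breakdown of glucosinolates towards isothiocyanates, rose from 372 to 652 RPKM. Of 44 histone genes 2 rose and 1 fell, and the linker histone gene HIS1-3, known as responsive to drought, rose from 9.64 to 37.5 RPKM.

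Of 90 bHLH factors 7 rose and 3 fell. The 3 with the largest increases, ORG2, ORG3 and BHLH100, are known regulators of the iron deficiency response, and they rose from 1.27 to 4.16, from 2.5 to 6.17 and from 2.24 to 5.52 RPKM. IRT1, the root iron importer, rose from 5.84 to 11.2 RPKM. It was the only one of 11 root genes to pass the deposited FDR. Of 35 MADS factors 3 rose and 1 fell. Those that rose were AT1G59930 (0.305 to 1.21 RPKM), which passed the filter only through hda6, and the flowering repressors MAF4 and MAF5. Of single genes known from anthocyanin synthesis, which were not counted as a pathway, GSTF12, which brings the pigment to the vacuole, rose from 1.10 to 2.35 RPKM and UGT75C1, a glucosyltransferase, from 2.14 to 5.40 RPKM, whereas the pathway activator MYB90 fell from 1.68 to 0.276 RPKM.

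Several families known from defence and stress fell in shares above the background. In these families and those below, members with an hda6 mean under 1 RPKM passed the filter only through WT. GSTU3, WRKY51, WRKY38 and JUB1 are among them. Their direction is therefore fixed, and the counts of falling genes are a description. Of 50 glutathione transferases, which couple glutathione to reactive compounds, 17 fell (34%) and 2 rose, and their median log2 fold change was -0.14 in the authors' deposited table. GSTF6 fell from 117 to 35.9 RPKM, GSTU4 from 16.7 to 0.881 RPKM, and GSTU3 from 5.59 RPKM to under 0.5 reads over the hda6 libraries, at least 190-fold lower. WRKY factors, which bind the W-box of defence genes, fell in 12 of 51 cases and rose in none, with 19 downward and 1 upward at a deposited p under 0.05. WRKY70 fell from 43.1 to 11 RPKM, WRKY46 from 4.84 to 1.16 RPKM, WRKY51 from 1.93 to 0.115 RPKM and WRKY38 from 1.56 to 0.0827 RPKM. NAC factors fell in 14 of 56 cases and rose in none, with 19 downward and none upward at a deposited p under 0.05. JUB1 and NAC029, NAC genes known from the control of leaf ageing, fell from 3.47 to 0.424 and from 3.35 to 0.627 RPKM.

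**Figure D4:**
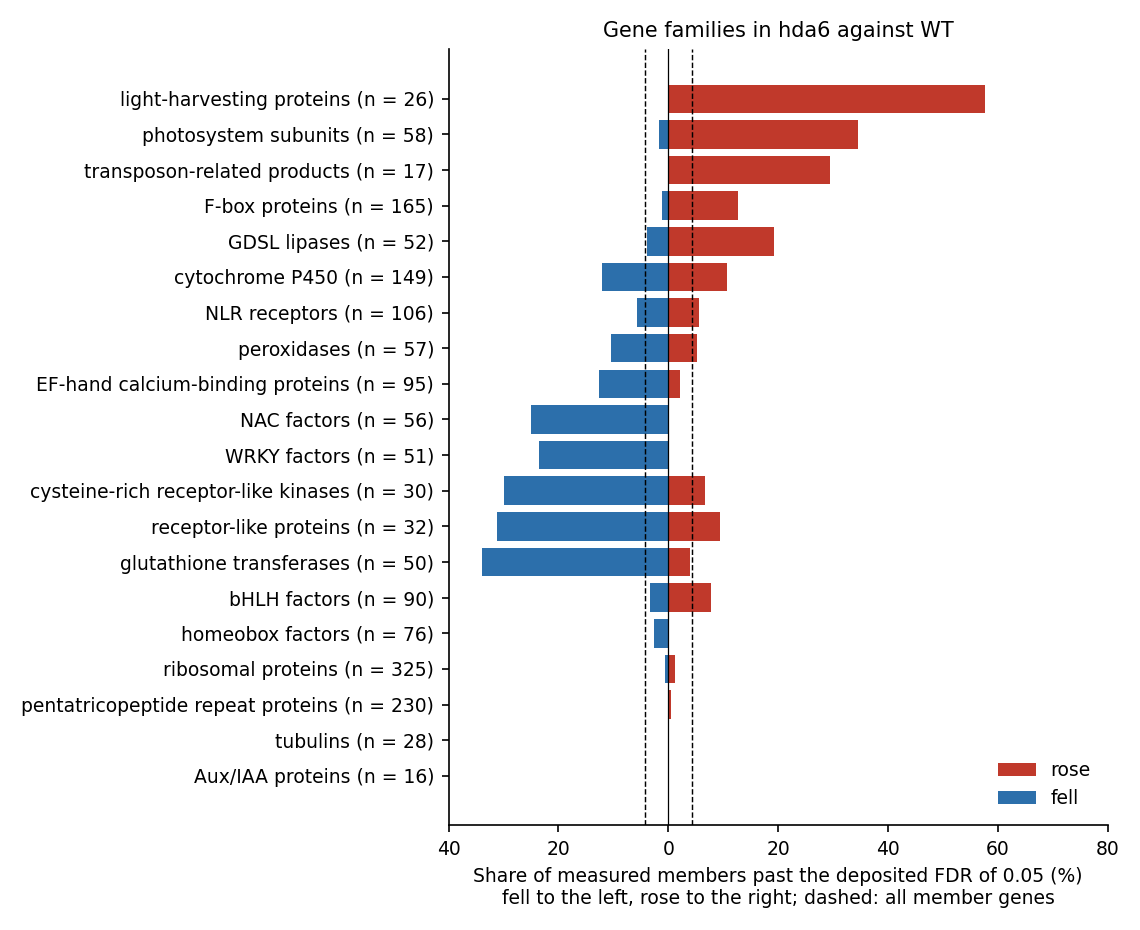
Share (%) of the measured members of 20 of the 67 families that rose (red, to the right) or fell (blue, to the left) past the deposited FDR; n is the number measured and dashed lines mark the shares over all members, 4.38% and 4.31%. Light-harvesting proteins rose in 57.7% and glutathione transferases fell in 34%, while tubulins and Aux/IAA proteins show no bar. The 20 families were listed by hand. Not drawn are, among others, wall-associated kinases (41.7% fell, 16.7% rose) and chlorophyll synthesis genes (45.5% rose, none fell). Genes with a WT mean under 1 RPKM are members only through hda6, and genes with an hda6 mean under 1 RPKM only through WT. The direction of both is fixed.

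Receptor families of the cell surface differed in their counts. Of 109 leucine-rich repeat kinases 5 rose and 4 fell, and of 52 lectin receptor kinases 5 rose and 3 fell. Of 32 receptor-like proteins, 10 fell and 3 rose, and of 30 cysteine-rich receptor-like kinases 9 fell and 2 rose. AtRLP23, the receptor of a peptide of microbial NLP proteins, fell from 2.28 to 0.338 RPKM, and SOBIR1, the leucine-rich repeat kinase that such receptors need, from 34 to 15.6 RPKM. CRK7_2 fell from 2.58 to 0.0391 RPKM and CRK36 from 2.30 to 0.243 RPKM. Of 12 wall-associated kinases 5 fell and 2 rose, and WAK1 and WAK3 went from 59.3 to 8.33 and from 7.37 to 0.158 RPKM. Of 106 NLR receptors, the intracellular class, 6 fell and 6 rose, shares of 5.66% each way. AT1G58602 fell from 57.7 to 8.29 RPKM and AT5G05400 rose from 1.15 to 3.95 RPKM. Members under 1 RPKM in hda6, such as AtRLP23, CRK7_2 and CRK36, passed the filter only through WT, so their direction is fixed. Whether these families differ was not tested.

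Several enzyme families held genes that fell, of which single ones are named here without a pathway count. DMR6 and DLO1, which hydroxylate salicylic acid, fell from 20.9 to 6.23 and from 2.80 to 0.174 RPKM, and UGT76B1, a glucosyltransferase that acts on salicylic acid and related immune regulators, from 12.4 to 4.22 RPKM. DTX47 (EDS5), the transporter that exports a salicylic acid precursor from the plastid, fell from 12.8 to 5.59 RPKM. GES, the terpene synthase that makes geranyllinalool, fell from 7.08 to 0.0226 RPKM, and CYP82G1, which turns that product into the volatile TMTT, from 1.71 to 0.0760 RPKM. CYP71A13, which acts in the synthesis of camalexin, fell from 10 to 0.016 RPKM. Its hda6 level rests on 2.26 reads, which puts the decrease at 197-fold to 5880-fold by counting error. Across all 149 cytochrome P450 genes 16 rose and 18 fell.

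Of 95 calmodulin-like, calmodulin-binding and EF-hand proteins 12 fell and 2 rose. CML47 fell from 8.88 to 0.763 RPKM and SARD1, a calmodulin-binding-type activator of salicylic acid synthesis, from 5.55 to 0.46 RPKM. Of 16 chitinases 3 fell and none rose, with 5 downward and none upward at a deposited p under 0.05, and CHI fell from 41.3 to 2.93 RPKM. The arabinogalactan protein AGP5 fell from 8.42 to 0.365 RPKM, the pectin methylesterase PME17 from 17.5 to 5.47 RPKM, and ABCG40, an importer of abscisic acid, from 11.6 to 0.857 RPKM. PUX9, a UBX domain protein gene, fell from 13 RPKM to under 0.5 reads over the hda6 libraries, at least 725-fold lower. Among the 15 largest decreases from at least 5 RPKM were also SAG13, a short-chain dehydrogenase gene used as a senescence marker (47.6 to 0.288 RPKM), AOX3, an alternative oxidase of mitochondria (8.16 to 0.120 RPKM), and NATA1, an ornithine acetyltransferase (9.36 to 0.177 RPKM).

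Other families of growth and basic cell functions varied. Xyloglucan endotransglucosylases, which remodel the cell wall, rose in 3 of 23 cases and fell in 1, pectin enzymes rose in 8 of 98 and fell in 3, and heat shock proteins fell in 11 of 87 (12.6%) and rose in 3. No member of the 28 tubulins and tubulin-related proteins passed the deposited FDR, with 3 upward and 1 downward at a deposited p under 0.05. None of the 16 Aux/IAA proteins passed it either, with 1 downward at such a p. Of 325 ribosomal proteins 4 rose and 2 fell, and of 230 pentatricopeptide repeat proteins 1 rose and none fell, with 17 upward and 5 downward at a deposited p under 0.05. None of the 12 core histone and DNA replication genes passed the FDR, with 1 downward at a deposited p under 0.05. The flower organ gene SEP3 stood at 12.3 and 12.4 RPKM, and of 11 such genes only SEP3, PI and SEP1 were measured, none past the FDR. The endodermal root genes CASP1 and SCR stood at 20.4 and 20.6 RPKM and at 9.21 and 8.49 RPKM.

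Loci known to be controlled by DNA methylation were read from a fixed list. Of 7 measured, SDC_2 (the F-box gene SDC) and QQS, a regulator of starch metabolism, rose, QQS from 64.4 to 91.7 RPKM, and ROS1, a DNA demethylase whose own gene needs methylation to be active, fell from 12.3 to 4.28 RPKM. SNC1, RPP4 and RPP5, which lie in a cluster of resistance genes, went from 35.1 to 35.8, from 23.4 to 23.7 and from 27 to 30.7 RPKM, and none passed the FDR. Below the filter, the imprinted MADS genes PHE1 and AGL36 rose from 0.0270 to 0.449 RPKM and from 0.00218 to 0.395 RPKM. FWA (HDG6 in the table) stood at 0.00619 and 0.0256 RPKM and did not pass the FDR. The seed regulator FUS3, also below the filter, rose from 0.0265 to 0.461 RPKM.

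Short motifs were then counted in the promoters. The window ran from 250 bases before to 50 bases after the annotated start, and both strands were searched in 18947 nuclear members. The W-box, TTGACC or TTGACT, was found in 46.3% of the promoters of lower genes, 31.6% of those of higher genes and 32.7% of all, and at least 2 of them in 18.4%, 6.63% and 7.63%. TGACG, the core bound by TGA factors, was in 30.6%, 21.8% and 23.8%, and shares the letters TGAC with the W-box. The site II motif TGGGCC, common in promoters of genes for growth and protein synthesis, was in 3.72% of lower, 12.5% of higher and 19.2% of all promoters. The telo box AAACCCTA was in 1.6% of lower, 7.96% of higher and 5.59% of all, and in 13.3% of those of the 98 higher genes with a WT mean under 0.1 RPKM. The TATA box TATAAA was in 58.8%, 47.5% and 51.2%, and in 37.8% of those 98.

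**Figure D5:**
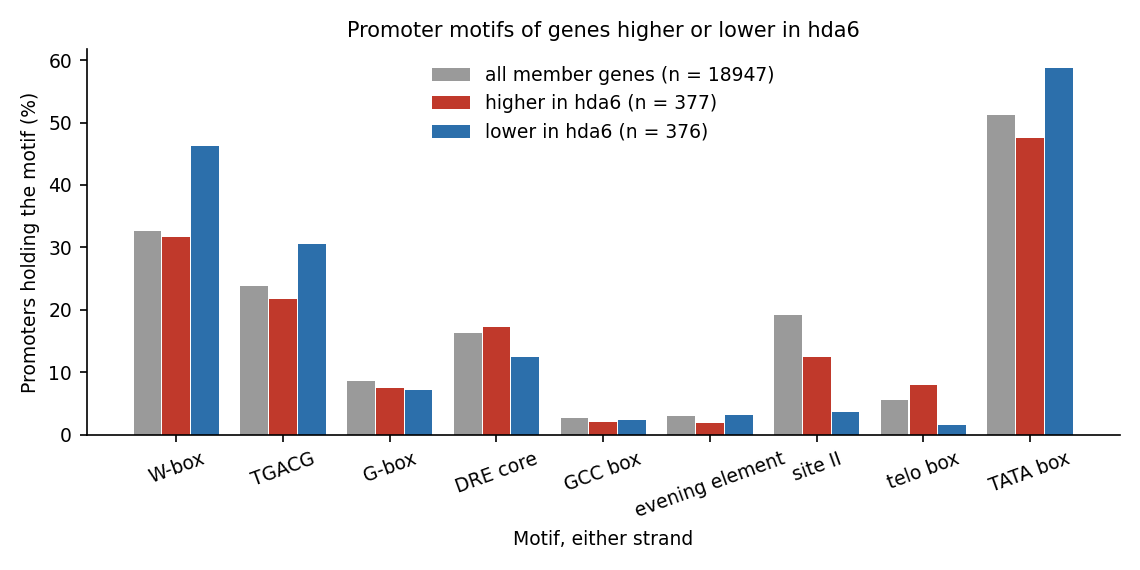
Share (%) of promoters that hold each motif on either strand, for all 18947 members with a promoter (grey), 377 higher (red) and 376 lower (blue) genes. Lower genes hold the W-box in 46.3% and site II in 3.72% of promoters, against 32.7% and 19.2% of all members.

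The G-box CACGTG was in 7.18% of lower, 7.43% of higher and 8.68% of all promoters, the GCC box GCCGCC in 2.39%, 2.12% and 2.64%, the evening element AAAATATCT in 3.19%, 1.86% and 3.03%, and the DRE core CCGAC in 12.5%, 17.2% and 16.3%. The median promoter held 6 CG dinucleotides among lower, higher and all genes. It held 7 among the 98 higher genes with a WT mean under 0.1 RPKM, and 7 among the 150 genes lower by a log2 difference of at least 2. Of the 22 genes that made up the 15 largest decreases from at least 5 RPKM and the 10 from at least 50 RPKM, 7 had a W-box in this window, and 15, PR1 and PUX9 among them, had none. This is near the 32.7% of all promoters. To show what a match looks like, the promoters of GSTU3 and TAT3, chosen because they hold the motif, are printed with its letters in capitals (RefSeq, TAIR10.1, chr2:12629591-12629890 and chr2:10585167-10585466, both minus strand). GSTU3 holds 2 matches, 1 on each strand, and TAT3 holds 1.
GSTU3: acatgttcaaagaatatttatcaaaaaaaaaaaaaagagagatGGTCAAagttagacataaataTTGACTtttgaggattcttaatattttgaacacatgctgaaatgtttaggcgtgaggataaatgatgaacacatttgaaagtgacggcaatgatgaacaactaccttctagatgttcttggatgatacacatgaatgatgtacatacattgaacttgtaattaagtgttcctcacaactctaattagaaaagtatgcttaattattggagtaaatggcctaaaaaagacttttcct
TAT3: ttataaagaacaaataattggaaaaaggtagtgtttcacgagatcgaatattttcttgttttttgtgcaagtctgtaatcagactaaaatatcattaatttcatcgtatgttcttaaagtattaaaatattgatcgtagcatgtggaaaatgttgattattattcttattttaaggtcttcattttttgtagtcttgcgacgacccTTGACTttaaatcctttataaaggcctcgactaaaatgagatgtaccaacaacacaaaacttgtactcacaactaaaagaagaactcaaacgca

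The other mutants of the series give a reading of the same genes beside hda6, with the WT group shared by all 3 tables. By the authors' deposited tables, AT2G03965 had a log2 fold change of 10.81 in hda6, -1.44 in ldl1/2 and 10.68 in hda6/ldl1/2. For AT4G04223 they were 3.82, 3.96 and 3.85 in the authors' deposited table, and for AT5G26270 they were 5.19, 2.66 and 5.31. ARP stood at 2.68, -0.19 and 0.13, whereas its partial copy AT3G60950 stood at 12.02, 1.25 and 11.92, in the authors' deposited table. Within the chromosome 1 run, AT1G27565 stood at 6.11, 5.6 and 6.36 in the authors' deposited table, while AT1G27570 stood at 10.17, -0.04 and 10.65. Among the lower genes, FOX2 stood at -5.64, -0.40 and -4.02, and HIPP14 at -4.83, -0.05 and -2.83, in the authors' deposited table. PUX9 stood at -13.01, -0.12 and -0.24 in the authors' deposited table. WAK1 stood at -2.77, 0.86 and -1.01, and RFS2 at -2.58, -0.96 and -0.27, in the authors' deposited table.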

How the data were processed

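RNA of seedlings was sequenced as 150-nt read pairs from TruSeq libraries, per the labels' protocols. Bowtie and TAIR10 are named in the submitters' processing notes, and no source used here gives the authors' test. The deposited tables, 1 per mutant against WT, give per gene the larger group mean in RPKM, read as such from the values, with the authors' log2 fold change, fold, p-value and FDR.

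The WT group is common to all 3 tables, so an equal larger mean identified the WT mean. The log2 ratio of the group means was the deposited log2 fold change plus an offset of -0.0574 (SD 0.0019, 1257 genes), which gave the smaller mean. In 87 of 88 genes, the rebuilt WT mean lay within 0.05 of 0.41 reads above a whole number, so the authors' fold changes appear to hold an added count, and a mean under 0.5 reads stands for none. Folds against such a group use a floor of 3 reads over the group. Means of 1 to 3 reads have exact Poisson intervals (95%). Both cover counting error only.

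No test was run, since no value per library is in the tables. Depth steps matched 310 of 310 low WT values and 434 of 436 low hda6 values (tolerance 0.1%). Genes were matched by position to RefSeq TAIR10.1 (33347 of 34262 genes, 18977 of 18985 members). Copies came from BLAST+ 2.17.0. Counting steps were tested on simulated data. Members, lists and families were chosen with earlier results of these data known. Families were found by words in the RefSeq product name, and the word patterns were corrected for case and whole words after first counts had been seen. Named genes were HDA6, the 15 largest changes each way of at least 5 RPKM, the 10 each way of at least 50 RPKM, up to 4 per family, list members, and runs; copies, ATMRU1, NTMC2TYPE4 and the genes of the closing section were named after their values were seen.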

Additional observations from a re-analysis of the deposited data

Results flagged for a closer look

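Some abundant genes moved in opposite directions in hda6 and ldl1/2, past a log2 difference of 1 and the deposited FDR in both. Abundant here means a larger mean of at least 50 RPKM in either comparison. LLP, SDI1 and LSU1 reached that level only in the ldl1/2 comparison. The 9 such genes are given with their log2 fold change in the authors' deposited tables, first in hda6 and then in ldl1/2. Both comparisons share the WT group, and the difference between the mutants was not tested. AT2G25510, uncharacterized, stood at -2.76 and 1.52, and AT5G42530, uncharacterized, at -1.77 and 1.47. SDI1 and LSU1, markers of sulfur limitation, stood at -1.71 and 2.90 and at -1.58 and 2.59. ACD6, an ankyrin protein that promotes salicylic acid signalling, stood at -1.49 and 1.44. The lectin gene LLP stood at -1.9 and 1.14, AT1G76960 at -1.47 and 1.12, and CML10, a calmodulin-like gene, at -1.44 and 1.49. LHCB1.1_2, which encodes a light-harvesting protein, went the other way at 1.11 and -1.02. In hda6/ldl1/2 these genes stood between -0.69 and 1.0 in the authors' deposited table.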

How the results depend on the processing

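Of 52 alternative values, 31 stayed within 1.5 times the reported count or within the interval of the reported share. Without a filter the size rule gave 1837 higher and 1466 lower genes, with a larger mean of at least 5 RPKM 122 and 165, with a pseudocount of 1 209 and 250, with a smaller size threshold 845 and 743, and with a threshold of 2 188 and 152. A larger mean of at least 5 RPKM left 492 genes that rose, and FDR and size together left 353 and 338. A WT mean of at least 1 RPKM, chosen after seeing the data, left 113 genes higher by size and a higher share within 2 Mb of 2.55%. That share was 14.6% within 1 Mb and 3.99% within 4 Mb, and the lower share within 1 Mb was 1.39%. With the pseudocount, 38 higher and 51 lower genes had such a neighbour, and 47 lower genes did so when neighbours differed in product. Centring on the median (-0.01), the ratio of the RPKM means and protein-coding genes alone moved no count by 1.5 times. No paired analysis was possible because the tables hold no value per library, and libraries could not be left out for the same reason. The standard error implied by the authors' p-values was 0.32 in log2 at 1 to 2 RPKM, and how much of it is depth was not tested.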

Other observations

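FER1, which encodes an iron-storing ferritin of the plastid, rose from 100 to 285 RPKM in hda6, beside the iron deficiency regulators and the importer IRT1 named above. FER1 was singled out after its value was seen, and no list of ferritin or iron uptake genes was counted.

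The cold-regulated genes COR15A and COR15B, tandem copies of 79.8% identity whose proteins protect chloroplast membranes in the cold, went from 6.71 to 27 RPKM and from 22.1 to 57.4 RPKM. Both passed the deposited FDR, and the pair was singled out after its values were seen.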
